A study of Mus musculus with 6 samples.

Results

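The transcription factors that set up and maintain the acinar cells of the pancreas were followed in whole pancreas of mice whose endocrine lineage carried a Prox1 transgene. The set comprised 9 genes: Ptf1a, Rbpjl, Bhlha15, Nr5a2, Gata4, Gata6, Hnf4a, Foxa3 and Nr0b2. They were taken by name, as every probe set whose only gene symbol in the array annotation was one of them, which gave 20 of the 45037 probe sets tested. Between 1 and 4 probe sets stood for each gene, and probe sets of 1 gene read the same RNA, so they are not replicates of each other.

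All mice were of the NMRI strain and were sampled at postnatal day 15, and total RNA of the whole organ was hybridised to Affymetrix 3' expression arrays, 1 array per sample. The Prox1-OE group (3 arrays) had the genotype Jojo-Prox1, Ngn3-cre, and the control group (3 arrays) had Ngn3-cre alone, so both groups carried the Cre driver. Ngn3 marks the progenitors of endocrine cells, so the cells that make the acinar factors are mostly not the cells in which the Cre acts, and each array reports their RNA mixed with that of every other cell type. In such bulk samples fewer cells of a type and less RNA per cell cannot be told apart. The question asked of these genes was whether the exocrine regulatory program differed when Prox1 was overexpressed in the endocrine lineage beside it.

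Acinar cells make the digestive enzymes. Ptf1a is a basic helix-loop-helix (bHLH) protein that, with an E protein partner and Rbpjl, forms the PTF1 complex. That complex binds a bipartite element, an E-box followed or preceded by a TGGGAA core, in front of the enzyme genes and of Rbpjl itself. Bhlha15 (Mist1) is the bHLH factor that scales up the secretory apparatus. Nr5a2 (LRH-1) is a nuclear receptor that acts with PTF1 on enzyme genes, and Nr0b2 (SHP) is an orphan receptor without a DNA-binding domain that represses Nr5a2 and Hnf4a and is itself an Nr5a2 target in liver. Gata4 and Gata6 are zinc finger factors of the early pancreas, and Hnf4a and Foxa3 are shared with liver, gut and islets. Prox1 is known in liver cells as a corepressor that binds Nr5a2 and Hnf4a.

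The promoter windows of 4 members (Nr5a2, Nr0b2, Bhlha15 and Rbpjl) are shown. They were picked in view of the values below, where no member passed the test. RefSeq (GRCm38.p6) gave windows of 250 bases before to 50 after a start site for 7 of the 9 genes, 9 windows in all, and Gata4 and Gata6 had none in the table. Capitals mark CAGGTG (an E-box), TGGGAA (the core bound by Rbpj and Rbpjl) and AAGGTCA or AAGGCCA (nuclear receptor half-sites of the Nr5a2 type), each searched on both strands.
Rbpjl, chr2:164402944-164403243, plus strand: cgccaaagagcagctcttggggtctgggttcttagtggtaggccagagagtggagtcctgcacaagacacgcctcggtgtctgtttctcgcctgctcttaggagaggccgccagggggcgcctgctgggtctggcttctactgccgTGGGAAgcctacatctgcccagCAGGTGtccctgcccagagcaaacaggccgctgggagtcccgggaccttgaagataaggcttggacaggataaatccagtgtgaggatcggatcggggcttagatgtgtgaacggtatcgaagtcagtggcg
Bhlha15, chr5:144190036-144190335, plus strand: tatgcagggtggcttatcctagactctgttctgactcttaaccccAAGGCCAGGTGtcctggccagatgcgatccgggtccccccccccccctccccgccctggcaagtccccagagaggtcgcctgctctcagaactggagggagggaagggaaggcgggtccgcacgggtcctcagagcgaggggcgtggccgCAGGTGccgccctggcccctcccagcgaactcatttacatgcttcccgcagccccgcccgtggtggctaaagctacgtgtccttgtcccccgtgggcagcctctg
Nr5a2, chr1:136953581-136953880, minus strand: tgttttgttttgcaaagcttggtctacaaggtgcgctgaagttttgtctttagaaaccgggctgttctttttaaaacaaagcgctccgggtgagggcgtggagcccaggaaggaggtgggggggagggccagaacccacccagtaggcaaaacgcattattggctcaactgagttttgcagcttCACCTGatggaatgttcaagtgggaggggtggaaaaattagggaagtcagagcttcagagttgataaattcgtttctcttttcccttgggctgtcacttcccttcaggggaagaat
Nr0b2, chr4:133553126-133553425, plus strand: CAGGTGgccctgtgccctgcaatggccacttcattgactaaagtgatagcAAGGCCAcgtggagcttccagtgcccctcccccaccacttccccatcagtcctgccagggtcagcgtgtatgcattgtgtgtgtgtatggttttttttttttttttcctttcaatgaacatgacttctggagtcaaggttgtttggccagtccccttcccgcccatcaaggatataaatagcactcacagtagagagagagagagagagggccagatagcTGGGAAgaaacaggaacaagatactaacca

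In the Rbpjl window TGGGAA began at position -104 from the start site and CAGGTG at -82, on the same strand. This was the 1 member window of the 9 in which both motifs began at most 30 bases apart, an arrangement found in 1.32% of the 32851 RefSeq windows. Whether or not the other was present, CAGGTG was in 6 of the 9 member windows and in 20.2% of all windows, and TGGGAA in 3 of 9 against 25.6%. Bhlha15 had CAGGTG at -200 and -55, and the first of these overlapped an AAGGCCA that began at -205. Nr0b2 had AAGGCCA at -200, CAGGTG at the far edge of the window, and TGGGAA at 21 bases after the start. AAGGCCA was in 2 of 9 member windows against 6.2% of all, and AAGGTCA in 0 of 9 against 4.72%. The Nr5a2 window held 1 CAGGTG, read as CACCTG at -66, and its other start site had none of the motifs. Other types of E-box were not searched. These matches describe letters in short windows and are neither binding sites nor causes.

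None of the 20 probe sets differed between Prox1-OE and control at an adjusted p under 0.05. In the limma fit of all probe sets, 0.0111% passed in either direction, and the member with the smallest adjusted p was Nr5a2 (0.777). At an unadjusted p under 0.05, 2 of the 20 were lower and 0 higher, against 3.5% of all probe sets lower and 2.65% higher. The log2 difference was negative for 16 of 20 (54.9% of all probe sets) with a median of -0.11, where the median of all probe sets was -0.02. The groups did not overlap, with Prox1-OE lower, for 4 of 20 (6.8% of all probe sets). These were a pair of Nr5a2 probe sets and 1 each of Bhlha15 and Gata4. Differences ran from -0.43 for Nr5a2 to 0.20 for Gata6, and 17 of the 20 probe sets read above the median level of all probe sets.

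**Figure D1:**
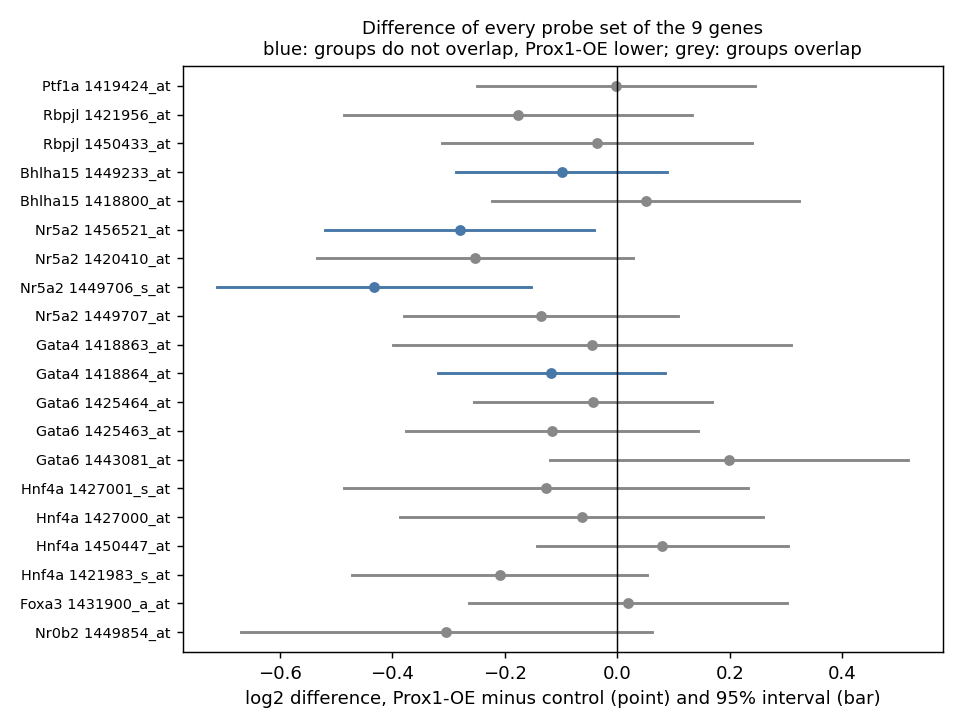
Log2 difference between Prox1-OE and control (horizontal axis, point) with its 95% interval from limma (bar) for the 20 probe sets of the 9 acinar transcription factors, 3 arrays per group. The intervals of 2 Nr5a2 probe sets lie below 0, and those of the other 18 probe sets cross it.

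Ptf1a, the founding bHLH factor of the pancreas and the acinar cell, showed no detectable difference. Its probe set (1419424_at) gave log2 signals of 10.44, 10.36 and 10.29 on Prox1-OE replicates 1, 2 and 3, and 10.55, 10.34 and 10.21 on the controls. The Prox1-OE values lay inside the control range. The log2 difference was -0.00 ± 0.11 (SE, n = 3 per group; limma adjusted p = 0.999), with a 95% interval from -0.25 to 0.25. That interval corresponds to 0.84 to 1.18 times the control level.

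Rbpjl, the acinar-specific partner of Ptf1a, split the Prox1-OE arrays. Its brighter probe set (1421956_at) read 9.47, 9.46 and 9.87 in Prox1-OE and 9.95, 9.66 and 9.73 in control. Prox1-OE replicates 1 and 2 were below all controls, and replicate 3 was inside the control range. The log2 difference was -0.18 ± 0.14 (SE; limma adjusted p = 0.860; 95% interval -0.49 to 0.13). It was -0.31 without Prox1-OE replicate 3, -0.11 without either of the other two, and -0.09 without control replicate 1. The second Rbpjl probe set (1450433_at) differed by -0.04 ± 0.12, and there control replicate 1 (5.11) stood above the other 5 arrays (4.69 to 4.86).

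The partners and inhibitors of the bHLH factors, a list of 11 genes, all measured, had 0 members past the threshold in either direction, where 0.0275% of 18193 genes passed in the fit with 1 probe set per gene. At an unadjusted p under 0.05, 1 was higher and 0 lower, against 2.94% of genes higher and 3.7% lower. Of the 11, 10 had a positive difference (46.2% of genes), with a median of 0.10 against -0.01 for all genes. Id4, an inhibitor that binds bHLH proteins and keeps them from DNA, read 5.99, 5.15 and 5.23 in Prox1-OE and 4.93, 5.09 and 4.87 in control (log2 difference 0.49 ± 0.21, limma adjusted p = 0.740). The groups did not overlap, and Prox1-OE replicate 1 was the highest of the 6 arrays. Tcf3, which encodes the E protein partners E12 and E47, differed by 0.23 ± 0.12 (limma adjusted p = 0.766). Rbpj, the Notch effector that Rbpjl replaces in the PTF1 complex, differed by 0.24 ± 0.15 (adjusted p = 0.791) and read 7.84 on Prox1-OE replicate 1 against 7.16 to 7.41 on the other 5 arrays. Without Prox1-OE replicate 1 the difference was 0.23 for Id4, 0.15 for Tcf3 and 0.08 for Rbpj. These values are those of the brightest probe set. The mean of all probe sets of a gene differed by 0.23 for Id4, 0.10 for Tcf3 and 0.11 for Rbpj. With such means, 0 of the 11 had a limma unadjusted p under 0.05. On Prox1-OE replicate 1 the mean of 5 B cell markers was 1.67 above control on the log2 scale, against 0.34 and 0.58 on the other Prox1-OE arrays. The part of those cells in the Id4 and Rbpj values was not tested.

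Bhlha15 differed little but without overlap. Its brighter probe set (1449233_at) read 10.23, 10.25 and 10.26 in Prox1-OE and 10.37, 10.34 and 10.32 in control, so the values of each group lay within 0.06 of each other. The log2 difference was -0.10, with SDs of 0.02 in Prox1-OE and 0.03 in control. Because limma draws so small a spread towards that of other probe sets, its standard error was 0.08 (adjusted p = 0.867; 95% interval -0.29 to 0.09, or 0.82 to 1.06 times control). The other Bhlha15 probe set (1418800_at) differed by 0.05 ± 0.12, with overlapping groups. The 2 probe sets thus had opposite signs, and their mean differed by -0.02.

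The acinar secretion genes, several of them Bhlha15 targets, were a list of 13 genes, all measured, of which 0 passed in either direction. At an unadjusted p under 0.05, 2 were lower (3.7% of genes) and 0 higher (2.94%). The difference was negative for 10 of 13 (53.8% of genes), with a median of -0.05. Aqp12, a water channel of acinar cells, read 10.91, 10.90 and 11.15 in Prox1-OE and 11.19, 11.22 and 11.45 in control (log2 difference -0.30 ± 0.11, limma adjusted p = 0.711). Its groups did not overlap, although Prox1-OE replicate 3 lay only just under control replicate 1. Rab26, a vesicle GTPase under Bhlha15 control, read 7.45, 7.67 and 8.02 against 8.23, 7.93 and 8.06 (-0.36 ± 0.15, adjusted p = 0.746). Like Rbpjl, it was low on Prox1-OE replicates 1 and 2 and inside the control range on replicate 3. Atp2c2, a calcium pump of the secretory pathway, read 8.22, 8.41 and 8.84 against 8.82, 8.76 and 8.61 and differed by -0.24 ± 0.16. It too was low on Prox1-OE replicates 1 and 2, but replicate 3 lay above all controls. Without Prox1-OE replicate 1 the difference was -0.23 for Rab26 and -0.11 for Atp2c2.

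**Figure D2:**
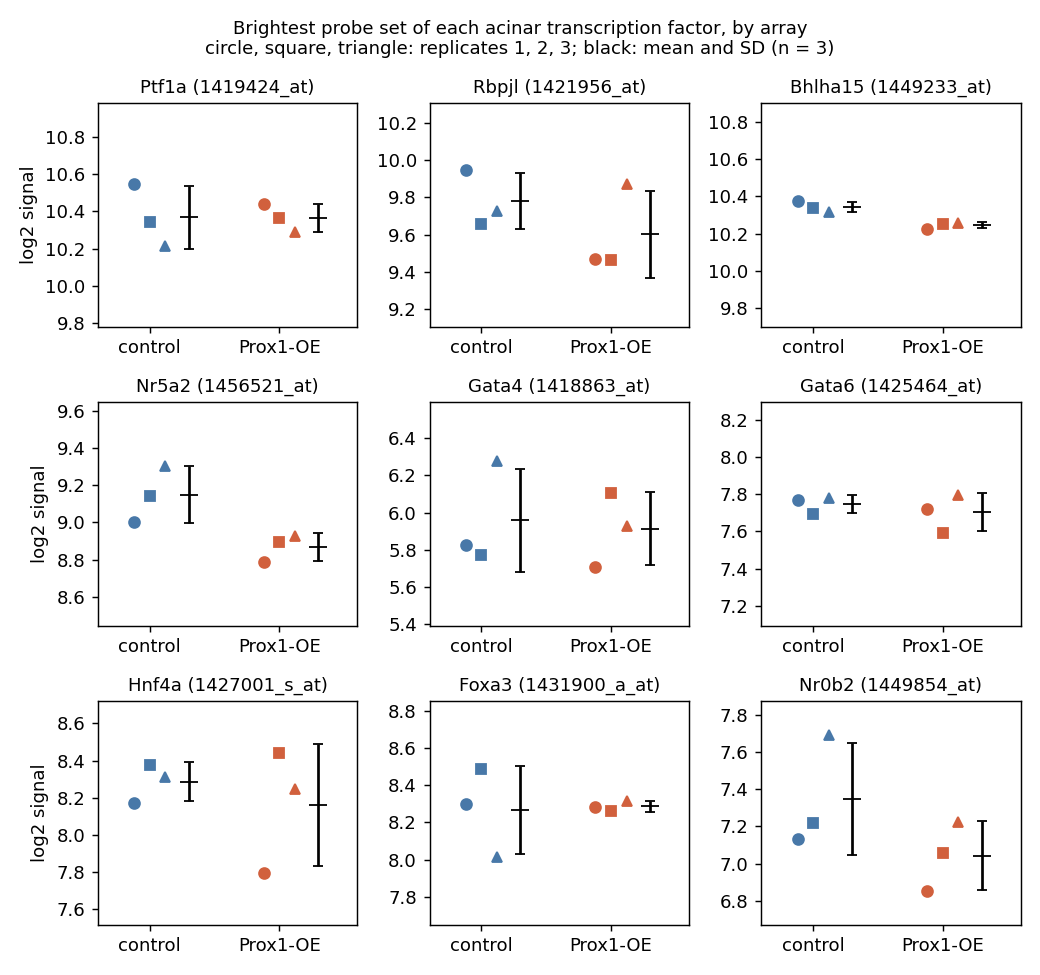
Log2 signal of the brightest probe set of each of the 9 genes (vertical axes, all spanning the same range of log2 units) in control and Prox1-OE pancreas; symbols are replicates and the black bars are the mean and SD of 3 arrays. Nr5a2 and Bhlha15 show no overlap between the groups, and the other 7 genes do overlap.

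Like the 2 probe sets of Rbpjl and the 2 of Gata4, all 4 probe sets of Nr5a2 were lower in Prox1-OE. The brightest (1456521_at) read 8.78, 8.89 and 8.93 in Prox1-OE and 9.002, 9.14 and 9.30 in control, with no overlap. It differed by -0.28 ± 0.11 (SE; limma unadjusted p = 0.0264, adjusted p = 0.797), with a 95% interval from -0.52 to -0.04, or 0.70 to 0.97 times control. The probe set 1449706_s_at, whose suffix marks probes that can bind several transcripts, read 7.10, 7.32 and 7.20 against 7.45, 7.59 and 7.86, again without overlap. Its difference of -0.43 ± 0.12 was the largest of the 20 (unadjusted p = 0.00683, adjusted p = 0.777; 0.61 to 0.90 times control).

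The third Nr5a2 probe set (1420410_at) read 8.20, 8.33 and 8.41 in Prox1-OE and 8.34, 8.60 and 8.76 in control. Prox1-OE replicate 3 lay above control replicate 1, so the groups overlapped (-0.25 ± 0.12, adjusted p = 0.812). The fourth (1449707_at) was dim, at percentile 27.7 of all probe sets, and differed by -0.14 ± 0.11. On the 3 brighter probe sets Prox1-OE replicate 1 was the lowest array and control replicate 3 the highest, so leaving them out could only shrink the difference. Without control replicate 3 the 3 differences were -0.20, -0.16 and -0.32 in the order of brightness, and without Prox1-OE replicate 1 they were -0.24, -0.20 and -0.38. Without both they were -0.16, -0.10 and -0.27. Without control replicate 1, the lowest control on these probe sets, they were -0.35, -0.37 and -0.52.

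Nr0b2, the repressor partner of Nr5a2, read 6.85, 7.06 and 7.22 in Prox1-OE and 7.13, 7.22 and 7.69 in control. Its lowest and highest arrays were those of Nr5a2, and the groups overlapped through Prox1-OE replicate 3. The log2 difference was -0.30 ± 0.16 (SE; limma adjusted p = 0.816; 95% interval -0.67 to 0.06). It was -0.13 without control replicate 3, -0.21 without Prox1-OE replicate 1 and -0.04 without both. These 2 arrays were singled out as its lowest and highest, so leaving them out could only shrink the difference.

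**Figure D3:**
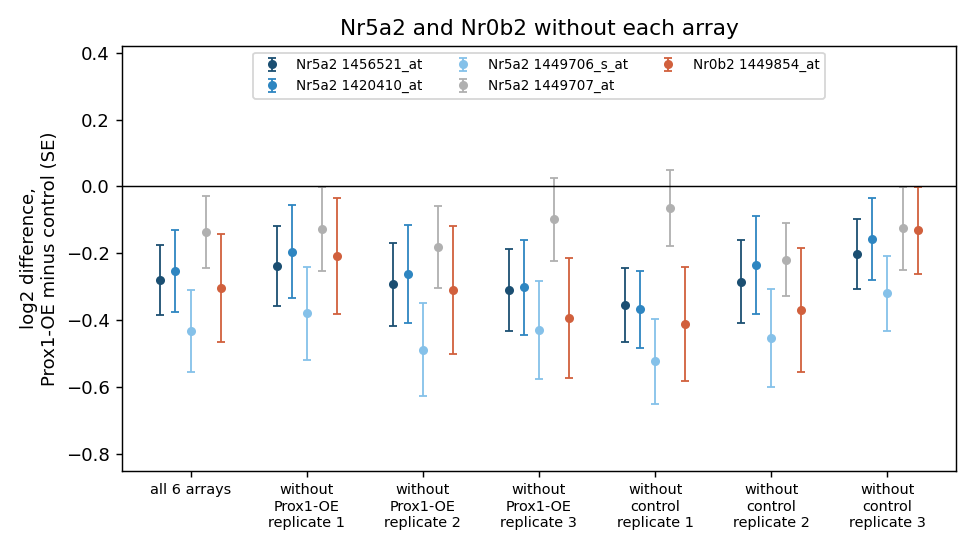
Log2 difference between Prox1-OE and control (vertical axis, with SE from limma) for the 4 probe sets of Nr5a2 and that of Nr0b2, with all 6 arrays and without each array in turn (horizontal axis). All differences are negative, and for Nr0b2 the one nearest 0 is without control replicate 3 (-0.13).

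The 2 arrays that framed Nr5a2 and Nr0b2 also stood apart in markers of other cells. Over the 5 measured B cell markers of 6 listed, Prox1-OE replicate 1 was 1.67 above control, where 2 of the 5 (Ms4a1 and Ighm) read above the median level of all probe sets. Over 7 macrophage markers it was 0.82 above control, against 0.31 and 0.29 on Prox1-OE replicates 2 and 3. Control replicate 3 was 0.81 above the control mean over 3 of 4 proliferation markers, against -0.49 and -0.32 on the other controls, with Aurkb below the median level. Endothelial markers were apart on control replicate 3 only, at -0.41. On Prox1-OE replicate 1 they were at 0.36, against 0.25 and 0.16 on control replicates 1 and 2. The part of these cells in the Nr5a2 and Nr0b2 differences was not tested. Acinar markers varied little: 5 of 7 listed were measured, all among the brightest probe sets (14.4 to 14.6), and their mean was between -0.09 and 0.01 on all 6 arrays. Such bright probe sets may be saturated and can hide a change in the amount of acinar RNA.

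**Figure D4:**
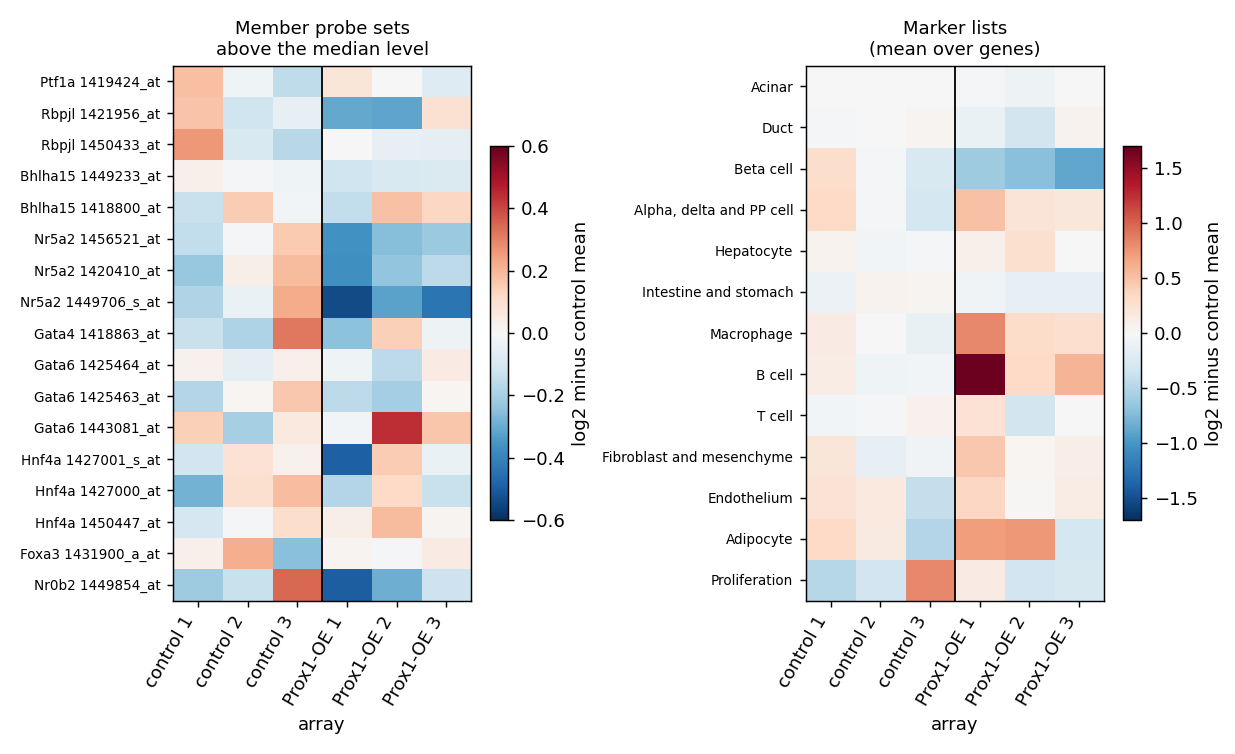
Log2 signal minus the control mean (colour, with its own scale in each panel) on the 6 arrays (columns) for the 17 member probe sets above the median level and for 13 lists of cell type markers. Prox1-OE replicate 1 is low for Nr5a2, Nr0b2 and the brightest Hnf4a probe set and high for B cell markers (1.67), and control replicate 3 is high for Nr5a2, Nr0b2, Gata4 and proliferation markers (0.81).

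None of the 5 probe sets of the GATA factors passed the test. The brighter Gata4 probe set (1418863_at) gave 5.71, 6.10 and 5.93 in Prox1-OE and 5.83, 5.77 and 6.27 in control, with fully mixed values (log2 difference -0.05 ± 0.16, limma adjusted p = 0.977). Its sign turned with array weights, and when Prox1-OE replicate 1 or control replicate 3 was left out. The other Gata4 probe set (1418864_at), at percentile 42.9 of all probe sets, read 4.06, 3.95 and 3.95 against 4.07, 4.06 and 4.18. The groups there did not overlap by the narrowest of margins, and the difference of -0.12 ± 0.09 had an adjusted p of 0.858.

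Gata6 had 3 probe sets, which did not share a sign. The brightest (1425464_at) read 7.72, 7.59 and 7.80 in Prox1-OE and 7.77, 7.69 and 7.78 in control, a range of 0.20 over all 6 arrays, and differed by -0.04 ± 0.09 (95% interval -0.25 to 0.17, or 0.84 to 1.12 times control). The second (1425463_at) differed by -0.12 ± 0.11. The third (1443081_at) differed by 0.20 ± 0.14, the highest of the 20, and read 5.02, 5.47 and 5.20 against 5.17, 4.83 and 5.09. It was 0.08 without Prox1-OE replicate 2, 0.10 without control replicate 2 and 0.30 without Prox1-OE replicate 1. The mean of the 3 differed by 0.01. Of 6 other GATA family members and their FOG cofactors 0 passed in either direction, and 0 had an unadjusted p under 0.05. Zfpm1 (FOG1) had the smallest p, with a difference of -0.14 ± 0.08 and no overlap, followed by Gata3 (0.20 ± 0.16, and 0.09 without Prox1-OE replicate 3) and Gata1 (0.10 ± 0.09), both below the median level and factors of blood cells.

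Hnf4a, a nuclear receptor of liver, gut and islets as well as of acinar cells, gave a difference of -0.13 ± 0.16 on its brightest probe set (1427001_s_at; limma adjusted p = 0.921). It read 7.80, 8.44 and 8.25 in Prox1-OE and 8.17, 8.37 and 8.31 in control. Prox1-OE replicate 1 was the low array and replicate 2 the highest of all 6, and without replicate 1 the difference was 0.06. The other Hnf4a probe sets differed by -0.06, 0.08 and -0.21, the last at percentile 30.7 of all probe sets, and all overlapped. The brightest and the dimmest (1421983_s_at) carry the suffix of probes that can bind several transcripts. Foxa3, a forkhead factor of the foregut, read 8.28, 8.26 and 8.32 in Prox1-OE and 8.30, 8.49 and 8.01 in control. Its Prox1-OE arrays lay within 0.06 of each other inside the spread of the controls (log2 difference 0.02 ± 0.12, adjusted p = 0.989; 0.83 to 1.23 times control). Since Hnf4a, Foxa3 and Nr0b2 are also made in other cells, markers of hepatocytes, gut and islets were read. The mean of 6 hepatocyte markers was -0.01 to 0.27 above control on the Prox1-OE arrays, with Cyp7a1, Fgb and Apoa2 below the median level, and that of 6 intestinal and gastric markers was -0.06 to -0.13, with 4 of 6 below the median level. Islet markers moved further. The mean of 7 beta cell markers was -0.60, -0.71 and -0.89 on Prox1-OE replicates 1, 2 and 3 and between -0.26 and 0.30 on the controls, with Ucn3 below the median level. That of 5 alpha, delta and PP cell markers was 0.19 to 0.49 on the Prox1-OE arrays and -0.30 to 0.34 on the controls, with Irx2 below the median level. The part of these cells in the Hnf4a, Foxa3 and Nr0b2 values was not tested.

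Of 16 further genes of the hepatic and foregut network 14 were measured, and 0 passed in either direction. At an unadjusted p under 0.05, 2 were lower (3.7% of genes) and 0 higher (2.94%), and the median difference was -0.07. Foxa2, a pioneer factor of the endoderm that is expressed in acinar and endocrine cells, read 7.80, 7.80 and 8.01 in Prox1-OE and 8.23, 8.03 and 8.08 in control, without overlap (-0.24 ± 0.10, limma adjusted p = 0.740). Nr1h4, the bile acid receptor FXR and an activator of Nr0b2 in liver, read 5.25, 4.81 and 4.92 against 5.17, 5.34 and 5.47 (-0.33 ± 0.14, adjusted p = 0.740). Prox1-OE replicate 1, the lowest array for Nr0b2, was the highest Prox1-OE array for Nr1h4 and overlapped the controls. Nr1i2, a xenobiotic receptor, differed by 0.17 ± 0.08 near the bottom of the signal range.

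Of 10 progenitor and duct transcription factors, all measured, 0 passed in either direction, and 1 was lower at an unadjusted p under 0.05 (3.7% of genes). This was Nkx6-1, which in the mature pancreas belongs to beta cells. It read 4.84, 4.95 and 4.56 in Prox1-OE and 5.46, 5.46 and 5.45 in control (-0.67 ± 0.11, limma adjusted p = 0.482), a larger difference than that of any acinar factor. It moved with the beta cell markers, a list that includes it and whose mean was -0.60 to -0.89 on the Prox1-OE arrays, and the part of beta cells in the Nkx6-1 value was not tested. Yap1, an effector of the Hippo pathway in duct and progenitor cells, differed by -0.14 ± 0.09 without overlap. Pdx1 differed by -0.22 ± 0.15 with overlap, and by -0.10 without Prox1-OE replicate 2. Prox1 itself, measured by 3 probe sets, differed by 0.06, -0.03 and 0.02 with overlapping groups, and since 3' probe sets may lie outside the transgene, these values are no check of the genotype labels.

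Of 23 genes listed as digestive enzymes, 16 were measured. None passed in either direction, and 0 had an unadjusted p under 0.05. The difference was negative for 15 of 16 (53.8% of genes), with a median of -0.05, and the groups did not overlap, with Prox1-OE lower, for 5 of 16 (7.02% of genes). The 5 without overlap had mean levels of 13.98 to 14.84, near the top of the signal range, where probe sets may be saturated. The 3 with the smallest p were Amy1 (-0.21 ± 0.13), Cela3b (-0.11 ± 0.08) and Ctrc (-0.93 ± 0.85). Cela3b was the brightest probe set on every array, at 14.71 to 14.82 in Prox1-OE and 14.86 to 14.92 in control. Its difference was thus that between the highest values of the arrays. Quantile normalization again sets those values equal, so there the difference vanished by construction. Ctrc read either 12.97 to 13.45 (Prox1-OE replicate 1, control replicates 1 and 2) or 10.51 to 10.88 (the other 3 arrays), levels that cross the genotypes. Amy1 read 9.32 on Prox1-OE replicate 1 and 9.61 to 9.89 on the other 5 arrays, and without it the difference was -0.09.

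**Figure D5:**
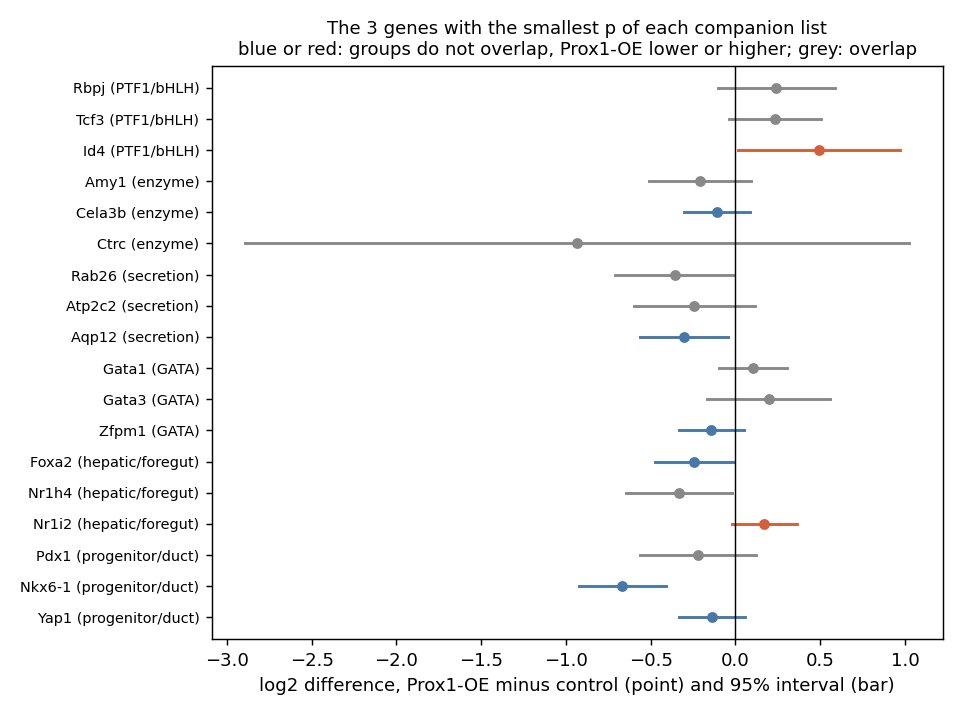
Log2 difference between Prox1-OE and control (horizontal axis, point) with its 95% interval from limma (bar) for the 3 genes with the smallest p in each of 6 lists of partners, targets and related factors, 3 arrays per group. Nkx6-1 (-0.67) lies farthest below 0 with groups that do not overlap, and the interval of Ctrc is the widest.

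The genes whose profile over the 6 arrays was most like a member's were sought for the members that varied by at least 0.5 on the log2 scale, which were Nr5a2, Gata4, Hnf4a and Nr0b2. Likeness was the root mean square difference between profiles centred on their own mean. Ap1s1, a small subunit of a clathrin adaptor, followed Nr5a2 most closely (0.03), and read 6.66, 6.75 and 6.82 in Prox1-OE and 6.84, 6.96 and 7.22 in control. Chit1 and Serpina11 came next (both 0.04). The nearest to Nr0b2 were Prss51 (0.05), Dct and Fancb (both 0.06), whose mean levels lay below the median of the arrays. The nearest to Gata4 were Mfsd9, Myt1 and 9330198N18Rik (0.03, 0.04 and 0.06), and to Hnf4a 4921528I07Rik, Elf4 and Banf2 (0.06 each). Of these, Mfsd9, Myt1 and 4921528I07Rik also had mean levels below the median of the arrays. With 6 arrays and 18193 genes, close profiles are a description of these arrays only.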

How the data were processed

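Labelled cRNA started from 100 ng of RNA, per the labels' protocols. The authors deposited log2 probe set values, and the submitters' processing notes name RMA, which sets the arrays to a common distribution, and Partek 6.5, with no settings. Array medians were 4.37 to 4.42 and correlations between arrays 0.988 to 0.994. Quantile-type normalization hides changes in total RNA and compresses dim signals.

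After removal of 64 Affymetrix controls, 45037 probe sets remained, 34945 with 1 gene symbol, 932 with several (not named) and the rest with none. Prox1-OE was compared with control with limma 3.58.1 (lmFit, eBayes) under R 4.3.3, and Benjamini-Hochberg adjustment at 0.05. For members every probe set entered, and for the 6 companion lists (70 of 79 genes measured) the brightest probe set of each of 18193 genes. P-values are two-sided. Nothing states that samples came from separate animals, so p-values measure the spread between these samples, which may be technical, and the number of arrays limits the precision. The fit was tested on simulated data.

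The members, lists and naming rule (all members, and the 3 smallest p of each list) were chosen with earlier results of these data known. Ms4a1, Ighm, Aurkb, Cyp7a1, Fgb, Apoa2, Ucn3 and Irx2 were singled out after their values were seen. Other settings were probe set choice, a dim filter, normalization, variance model, weighting of arrays, a replicate block, another threshold and leaving out arrays. RefSeq GRCm38.p6 gave promoter windows. The assembly behind the array is not given in the sources used here.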

Additional observations from a re-analysis of the deposited data

How the results depend on the processing

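No member probe set passed under any of the 17 other settings (smallest adjusted p 0.637), and the median difference of the members stayed negative, from -0.11 to -0.06. Without each array in turn the count was 0, and the median ran from -0.11 to -0.07. All 4 Nr5a2 probe sets, Nr0b2 and the brightest probe sets of Rbpjl and Bhlha15 kept a negative sign under every setting run. So did Gata4 1418864_at, Gata6 1425463_at and Hnf4a 1421983_s_at. A positive sign was kept likewise by Gata6 1443081_at (0.076 to 0.33) and Hnf4a 1450447_at (0.026 to 0.16). Signs turned for the other member probe sets, most of them near 0. Ptf1a was 0.016 with median centring. Gata4 (1418863_at) was 0.010 with array weights. The mean of the Gata6 probe sets was 0.013. Foxa3 was -0.0030 with quantile normalization again and -0.017 with array weights. A setting without both Prox1-OE replicate 1 and control replicate 3 was chosen after seeing the data. There Gata4 (1418863_at) was 0.21, Hnf4a 0.069 (1427001_s_at) and 0.087 (1427000_at), and Foxa3 -0.10. In it 1 digestive enzyme gene, Ctrc, passed (-2.63, limma adjusted p = 0.00287), with 2 arrays a group. The 2 arrays left out were those whose Ctrc level crossed the genotypes (12.97 on Prox1-OE replicate 1, 10.51 on control replicate 3). Their removal fixed this call in advance.

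Leaving out 1 array turned the sign of some, and over such fits differences ran from -0.079 to 0.087 for Ptf1a, -0.12 to 0.093 for Rbpjl 1450433_at, -0.017 to 0.15 for Bhlha15 1418800_at, -0.14 to 0.11 for Gata4 1418863_at, -0.089 to 0.012 for Gata6 1425464_at, -0.27 to 0.056 for Hnf4a 1427001_s_at, -0.21 to 0.030 for Hnf4a 1427000_at and -0.11 to 0.13 for Foxa3. The cause was not tested.

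With the replicate number as a block, 0 member probe sets passed (smallest adjusted p 0.637, and 4 in place of 2 at an unadjusted p under 0.05), and 0 companion genes passed. At an unadjusted p under 0.05 the acinar secretion genes went from 2 to 1 and the hepatic and foregut genes from 2 to 0. Deviations of same-numbered samples correlated at 0.06, 0.17 and 0.10, not all over 0.1. Each sample nevertheless correlated best with its own number, and differently numbered samples correlated at -0.14 to 0.02. Whether same-numbered samples share more than a number cannot be told from these values. Probe sets near the top or bottom of the signal range limit what can be seen of enzyme genes and of the dim Nr5a2, Gata4 and Hnf4a probe sets.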
